A study of Homo sapiens with 6 samples.

Results

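Of the 58735 genes in a read-count table of Meg-01 cells, 10 genes of the Eph and ephrin family were followed. They were chosen by symbol, with earlier results of these data known, out of 22 family genes in all. The choice comprised 4 Eph receptors (EPHA2, EPHB2, EPHB4 and EPHB6) and 6 ephrins (EFNA1, EFNA3, EFNA4, EFNA5, EFNB1 and EFNB2). Meg-01 is an established human megakaryoblastic cell line. RNA was sequenced from 3 libraries of untreated control cells and from 3 libraries of cells that had received 500 µM sodium propionate (C3), a short-chain fatty acid that intestinal microbes release. According to the labels C3 was given for 48 h, whereas the study's methods also name a shorter incubation before RNA extraction. No time is given for the control, and the study calls its 3 libraries per group technical replicates, so p-values measure the spread between these libraries, which need not include the variation between separate cultures. Library totals were 19318595, 18050689 and 16159449 counts for control replicates 1 to 3 and 16513025, 18652292 and 22821722 counts for C3 replicates 1 to 3.

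Eph receptors are receptor tyrosine kinases, and their ligands, the ephrins, sit on the membrane of the neighbouring cell. Ephrin-A proteins hang on a lipid anchor, whereas ephrin-B proteins cross the membrane and have a tail of their own. A contact can therefore signal forward into the cell with the receptor and in reverse into the cell with the ephrin. Such contacts steer cell adhesion, repulsion and the actin cytoskeleton, and in platelets they are known to act on aggregate stability.

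The question was which Eph receptor and ephrin mRNAs differed between control and C3. Of the 10 members, 5 were higher after C3 (EPHA2, EPHB2, EFNA3, EFNA4 and EFNB1) and 0 were lower in the edgeR quasi-likelihood test, adjusted by the Benjamini-Hochberg method. A gene was called at an adjusted p-value below 0.01 with a fold change above 1.3, the thresholds of the study. Across the 15078 tested genes, 5.05% were called higher and 1.47% lower by the same rule (761 and 222 genes, against 1024 and 101 when libraries were scaled by their size alone). At an unadjusted p-value below 0.05, 7 members were above control and 0 below it, against 16.8% and 15.3% of all tested genes. DESeq2 on all genes and limma-voom also called 0 members lower, with 3 and 4 called higher. In 7 members every C3 library lay above every control library, a pattern found in 17.5% of tested genes, and in 0 members every C3 library lay below, against 16.9%. The median log2 fold change was 0.41 over the members and 0.0021 over all tested genes. Because the members were chosen with earlier results of these data known, these counts and medians describe the chosen genes only. In RNA from a whole culture, more RNA per cell and a larger share of cells with that RNA cannot be told apart.

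All 10 members passed the filter on low counts (at least 10 counts in at least 3 libraries), and 9 had at least 10 counts in every library. The exception was EFNB2, with 7 counts in C3 replicate 1. Below, a normalized count is a count divided by the TMM-scaled library size and multiplied by the mean of that size, and means are given ± SD over 3 libraries. With 3 libraries against 3, an exact two-sided permutation test of a single gene cannot go below p = 0.1, the value reached by each of the 7 members without overlap.

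**Figure D1:**
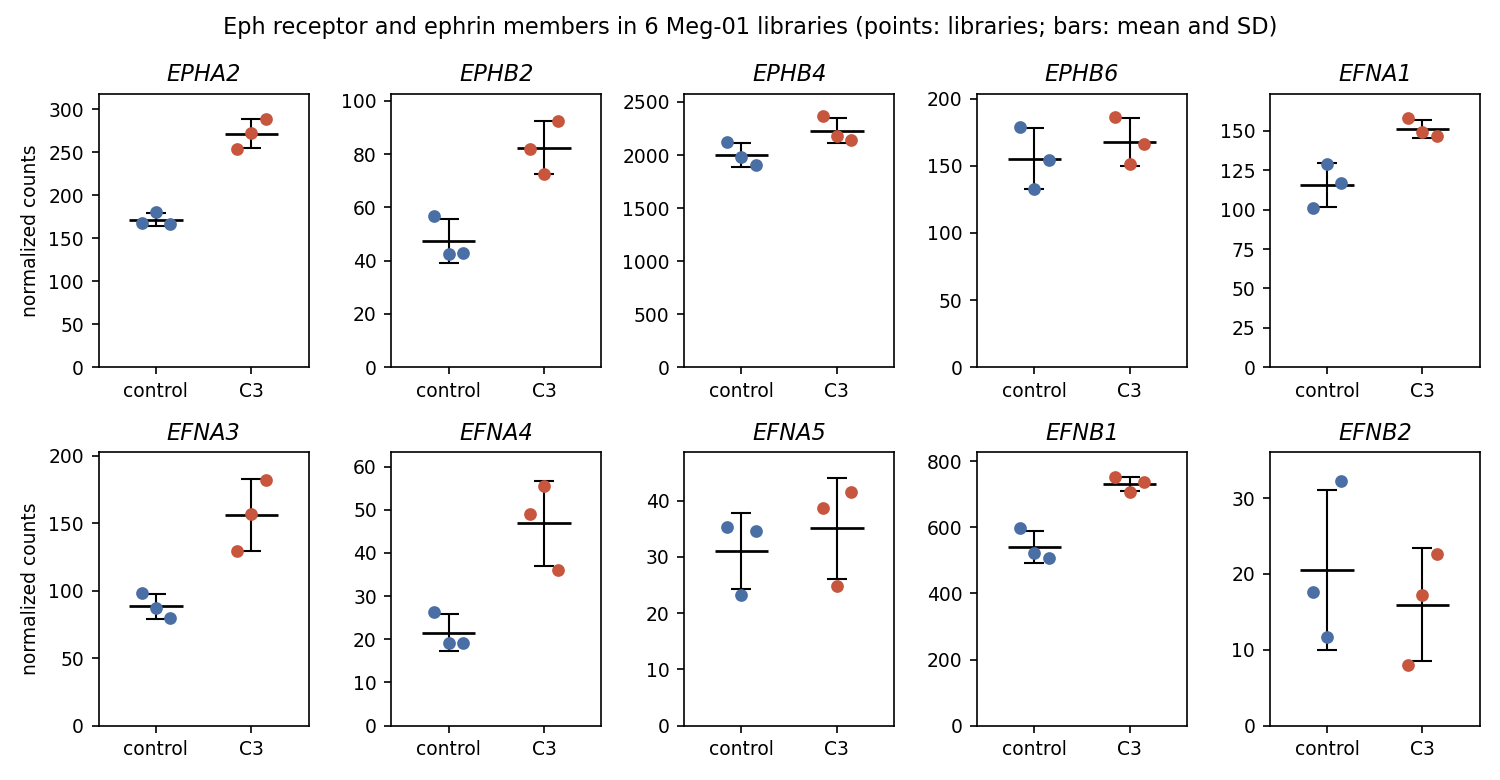
Normalized counts of the 10 members in each of 6 libraries, each panel with its own axis from 0. Points are libraries, horizontal lines are group means and bars are SD (n = 3). Control and C3 points are separate for EPHA2, EPHB2, EPHB4, EFNA1, EFNA3, EFNA4 and EFNB1 and overlap for EPHB6, EFNA5 and EFNB2.

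Among the receptors, EPHA2 had the smallest p-value of all members. EPHA2, a receptor of ephrin-A ligands, is encoded on the reverse strand of chromosome 1 (ENSG00000142627, GRCh38 positions 16124337 to 16156069). Its normalized counts were 168, 180.3 and 166 in the control libraries and 254, 272 and 288 in the C3 libraries. Every C3 library thus exceeded every control library, with 271 ± 17.0 against 171 ± 7.85. The log2 fold change of 0.67 ± 0.11 (standard error) had an adjusted p-value of 1.2e-04 in the edgeR test. It stayed between 0.62 and 0.71 with each library left out in turn, and the call was kept.

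EPHB2, a receptor of ephrin-B ligands that also binds ephrin-A5, is encoded further along chromosome 1 on the forward strand (ENSG00000133216, 22710839 to 22921500). Its normalized counts were 56.8, 42.4 and 43.0 in control and 81.9, 72.7 and 92.5 after C3. The groups did not overlap, and the log2 fold change of 0.79 ± 0.20 (standard error) had an adjusted p-value of 0.00551 in the edgeR test. This call rested on few counts (36 to 118 per library). It was lost without control replicate 2, control replicate 3 or C3 replicate 3 (adjusted p-values of 0.0346, 0.0239 and 0.0523 in edgeR) and with DESeq2 on all genes (0.0241), while the log2 fold change stayed between 0.70 and 0.97.

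The other receptors did not pass the thresholds. EPHB4, best known as the receptor of ephrin-B2, is encoded on the reverse strand of chromosome 7 (ENSG00000196411, 100802565 to 100827523). It gave 2127, 1981 and 1903 normalized counts in control and 2365, 2180.1 and 2146 after C3. The C3 libraries lay above control by a small margin, and the log2 fold change of 0.15 ± 0.065 (standard error) had an adjusted p-value of 0.101 in edgeR. EPHB6 (ENSG00000106123, chromosome 7, 142855061 to 142871094), a family member whose kinase domain is inactive, gave 179, 133 and 154 normalized counts in control and 186, 151 and 166 after C3. These ranges overlapped, with an adjusted p-value of 0.651 in edgeR and an exact permutation p-value of 0.5.

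Among the 6 ephrin members, EFNB1 was the most abundant and was higher after C3. EFNB1 encodes ephrin-B1, a transmembrane ligand of EphB receptors, on the forward strand of chromosome X (ENSG00000090776, 68829021 to 68842160). Its normalized counts were 597, 521 and 506 in control and 751, 707 and 736 after C3. The lowest C3 library lay above the highest control library, and the mean went from 541 ± 48.5 to 731 ± 22.3. Its log2 fold change of 0.43 ± 0.079 (standard error) gave an adjusted p-value of 3.3e-04 in edgeR, and the call was kept without any one library (0.39 to 0.52). EFNB2 encodes ephrin-B2, the main partner of EPHB4, on chromosome 13 (ENSG00000125266, 106489745 to 106535662, reverse strand). Its level was low, with 17.6, 11.7 and 32.2 normalized counts in control and 7.97, 17.2 and 22.7 after C3. The groups overlapped, and the adjusted p-value was 0.679 in edgeR. Control replicate 3 was the highest library and C3 replicate 1 the lowest, and the log2 fold change of -0.28 went to 0.17 without the former and to 0.00 without the latter. It was -0.56 without control replicate 2 and -0.64 without C3 replicate 3. Of its exon bases, 36.4% also lie in a gene on the opposite strand (ENSG00000284966), and since the strand setting of the counting is not given in the sources used here, reads of the 2 genes cannot be told apart.

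EFNA3 and EFNA4, which encode lipid-anchored ligands of EphA receptors, were higher after C3. EFNA3 gave 98.0, 87.0 and 80.0 normalized counts in control and 129, 157 and 182 after C3, with means of 88.3 ± 9.06 and 156 ± 26.7. The C3 libraries were spread more widely than the control libraries and did not overlap with them. The log2 fold change of 0.83 ± 0.16 (standard error) had an adjusted p-value of 4.5e-04 in edgeR, and the call was kept without any one library (0.70 to 0.94).

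EFNA4 had the largest fold change of the 10 members in the edgeR test and, with 16 to 58 counts per library, was among the least covered. Its normalized counts were 26.4, 19.1 and 19.1 in control and 48.9, 55.5 and 36.1 after C3. The groups did not overlap, and the log2 fold change of 1.09 ± 0.28 (standard error) had an adjusted p-value of 0.00669 in edgeR. The call was lost without control replicate 2, control replicate 3, C3 replicate 1 or C3 replicate 2 (adjusted p-values of 0.0341, 0.0271, 0.0162 and 0.0414 in edgeR). It was also lost with limma-voom (0.0113) and with DESeq2 on the filtered genes or on all genes (0.0101 and 0.024), while the log2 fold change stayed between 0.95 and 1.29 in the 13 alternative fits that kept the gene.

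The other ephrin-A members were not called. EFNA1, the first ephrin to be described and a ligand of EPHA2, gave 101, 129 and 117 normalized counts in control and 158, 149 and 147 after C3. The lowest C3 library was above the highest control library, and the log2 fold change of 0.39 ± 0.14 (standard error) had an adjusted p-value of 0.0504 in edgeR. EFNA5, which binds EphA receptors and EPHB2, is encoded on chromosome 5 (ENSG00000184349, 107376894 to 107670937, reverse strand). It gave 35.3, 23.3 and 34.6 normalized counts in control and 38.7, 24.9 and 41.6 after C3. These ranges overlapped (log2 fold change 0.18, adjusted p-value 0.714 in edgeR).

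**Figure D2:**
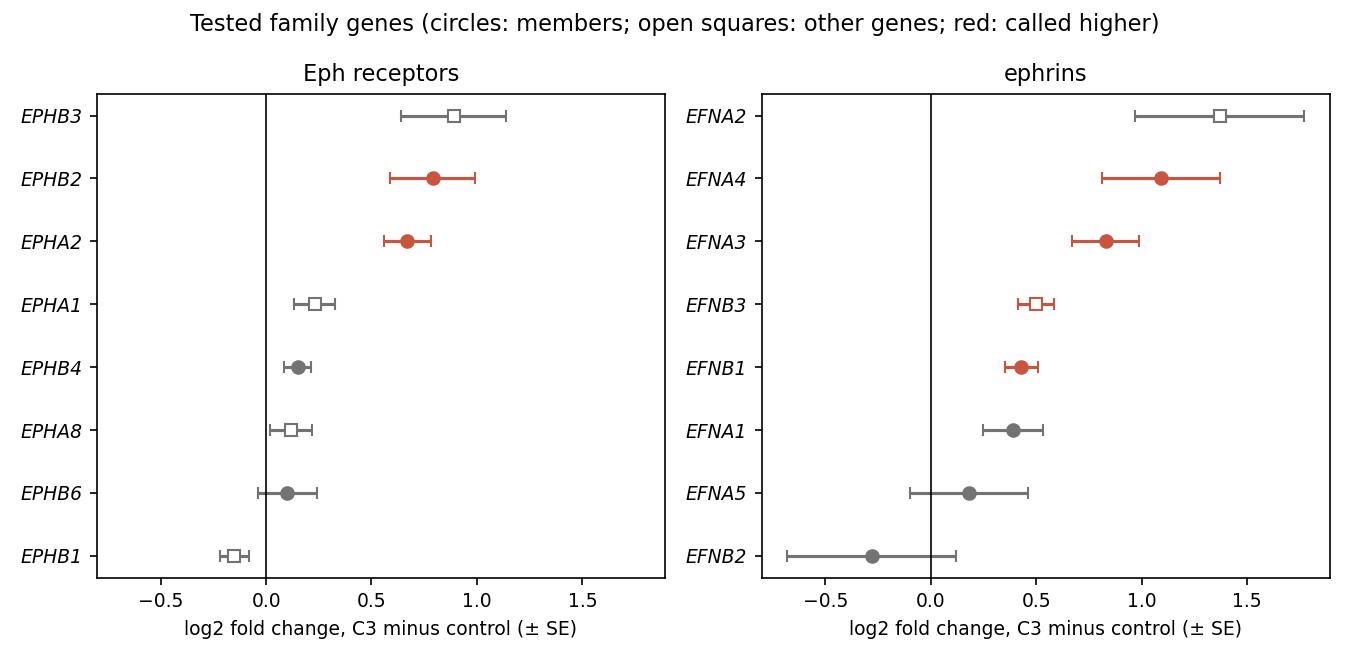
Log2 fold changes (C3 minus control) with standard errors for the 16 tested genes of the family, receptors on the left and ephrins on the right. Filled circles are members, open squares are other family genes and red marks genes called higher. All values except those of EPHB1 and EFNB2 lie above 0.

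EFNA4, EFNA3 and EFNA1 lie in a row on the forward strand of chromosome 1. EFNA4 (ENSG00000243364) spans positions 155063737 to 155069553, EFNA3 (ENSG00000143590) 155078837 to 155087538 and EFNA1 (ENSG00000169242) 155127876 to 155134899. The start of EFNA3 lies 15.1 kb and that of EFNA1 64.1 kb downstream of the start of EFNA4. An annotated readthrough gene, EFNA4-EFNA3, shares 15.0% of the exon bases of EFNA4 and 43.9% of those of EFNA3 and had 0 counts over all libraries. Reads on the shared bases cannot be assigned to 1 gene with certainty, so both counts carry that limit.

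Other genes around the cluster were compared to see how far the change extended. ADAM15, a membrane metalloprotease gene that starts 13.2 kb upstream of EFNA4, had 2167 ± 77.2 normalized counts in control and 2093 ± 186 after C3, with a log2 fold change of -0.05 and an adjusted p-value of 0.643 in edgeR. On the far side of EFNA1, SLC50A1, a sugar transporter gene, gave 522 ± 62.4 and 458 ± 19.2 (log2 fold change -0.18, adjusted p-value 0.152 in edgeR). ZBTB7B, a transcription factor gene, gave 786 ± 62.1 and 929.6 ± 52.8 (0.24, adjusted p-value 0.0231 in edgeR). TRIM46 and KRTCAP2, with 9 to 28 counts per library, had log2 fold changes of 0.69 and 0.35 and were not called (adjusted p-values of 0.174 and 0.571 in edgeR). The other tested neighbours, FLAD1, SHC1, PYGO2, CKS1B and DPM3, lay between -0.13 and 0.01 and were not called either. Around the starts of the 5 called members (100 kb to each side), 33 genes that are not members were in the count table. Of these, 13 were tested, and 1 was higher and 1 lower after C3, against 5.05% and 1.47% of all tested genes. Both lay near EPHA2. FAM131C was higher (70.4 ± 9.94 against 143 ± 20.5, log2 fold change 1.00, adjusted p-value 9.1e-05 in edgeR), and CPLANE2, a gene of cilium assembly, was lower (123 ± 26.8 against 72.1 ± 12.9, -0.76, adjusted p-value 0.00357 in edgeR). FAM131C was called in all 14 alternative fits and CPLANE2 in 9. The latter call was lost without control replicate 1, control replicate 3 or C3 replicate 2 (adjusted p-values of 0.0594, 0.0107 and 0.0213 in edgeR), with library size alone (0.0113) and with DESeq2 on all genes (0.0102).

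**Figure D3:**
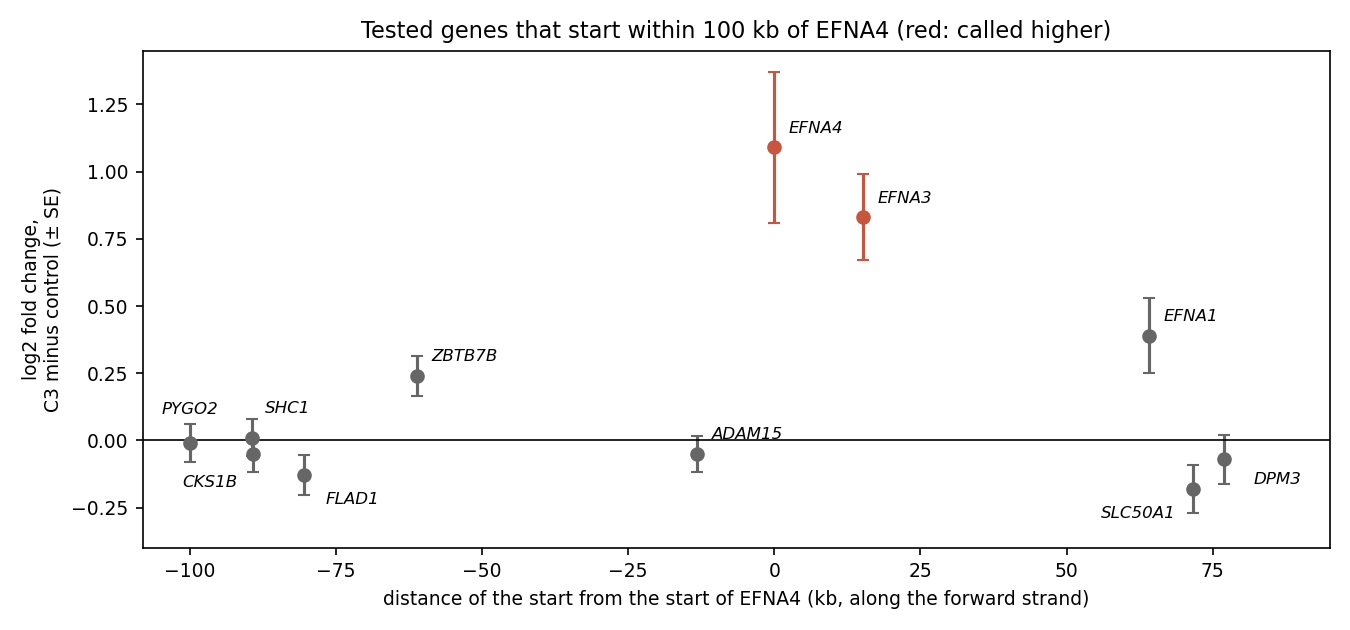
Log2 fold change (C3 minus control, ± SE) of the tested genes that start within 100 kb of EFNA4, against the distance of their start from that of EFNA4 in kb. Red points, EFNA4 at 1.09 and EFNA3 at 0.83, are called higher, and EFNA1 follows at 0.39.

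The promoters of the 5 called members are shown because these genes differed in the same direction, including the neighbours EFNA4 and EFNA3. RefSeq windows on GRCh38.p14 were matched for all 10 members, each with 250 bases before and 50 after the start. GGGCGG, the core of a GC box, was searched on both strands and occurred in the window of all 10 members (1 to 5 times), against 45.0% of 35116 windows. TATAAA was found in the window of EFNB2 only among the members, against 11.5% of all windows. CpG counts ran from 3 in EPHB6, whose window belongs to a start 7.7 kb inside the gene as annotated by GENCODE, to 49 in EFNB2, against a median of 14. RefSeq has 2 windows for EPHB2, offset by 1 base, with 49 and 48 CpG. In the 250 upstream bases below, capitals mark GGGCGG or its reverse complement, and each is written 5′ to 3′ on the strand of its gene. The positions are chr1:16156070-16156319 (reverse strand) for EPHA2, chr1:22710589-22710838 for EPHB2, chr1:155063490-155063739 for EFNA4, chr1:155078587-155078836 for EFNA3 and chrX:68828771-68829020 for EFNB1 (forward strand). The stretch of EPHA2 lies in an intron of EPHA2-AS1 and that of EFNA3 in an intron of the readthrough gene. The last 3 bases of that of EFNA4 are annotated by GENCODE as exon, and those of EPHB2 and EFNB1 lie outside annotated genes. For EPHB2 the window with 48 CpG is shown, whose start is that of GENCODE.
EPHA2: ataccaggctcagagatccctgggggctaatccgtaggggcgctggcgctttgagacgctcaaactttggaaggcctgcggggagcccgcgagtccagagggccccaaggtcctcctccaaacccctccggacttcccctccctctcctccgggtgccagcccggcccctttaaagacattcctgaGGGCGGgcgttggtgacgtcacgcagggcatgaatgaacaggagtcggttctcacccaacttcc
EPHB2: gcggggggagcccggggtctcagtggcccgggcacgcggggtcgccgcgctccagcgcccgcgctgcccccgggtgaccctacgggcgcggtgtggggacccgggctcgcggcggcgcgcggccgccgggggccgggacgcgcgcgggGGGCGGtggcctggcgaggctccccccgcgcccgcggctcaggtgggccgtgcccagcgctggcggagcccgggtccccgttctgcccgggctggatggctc
EFNA4: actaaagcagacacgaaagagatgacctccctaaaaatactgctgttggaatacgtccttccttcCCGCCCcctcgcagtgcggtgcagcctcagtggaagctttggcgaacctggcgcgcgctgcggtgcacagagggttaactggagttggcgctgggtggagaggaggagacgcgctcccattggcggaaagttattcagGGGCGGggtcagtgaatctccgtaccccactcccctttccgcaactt
EFNA3: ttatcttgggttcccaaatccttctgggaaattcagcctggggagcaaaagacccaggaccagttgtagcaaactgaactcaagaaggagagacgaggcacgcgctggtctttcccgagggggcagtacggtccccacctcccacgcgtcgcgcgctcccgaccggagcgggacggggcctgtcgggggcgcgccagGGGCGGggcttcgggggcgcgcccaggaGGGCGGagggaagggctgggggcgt
EFNB1: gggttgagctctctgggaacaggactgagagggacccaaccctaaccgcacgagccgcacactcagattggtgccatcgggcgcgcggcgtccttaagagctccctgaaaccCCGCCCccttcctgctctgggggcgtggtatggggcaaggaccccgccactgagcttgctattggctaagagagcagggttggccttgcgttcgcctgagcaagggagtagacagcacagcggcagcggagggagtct

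The GATA-type motifs AGATAA and TGATAA were found in the windows of EFNA3 and EPHB6, once each, against 10.3% and 7.53% of all windows. CCAAT was present in the windows of EPHB4, EPHB6, EFNA4, EFNB1 and EFNB2, against 34.6%, and the E-box CACGTG in none, against 7.26%. A match describes the letters of a window only.

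Levels of different genes were compared per length, as normalized counts per kb of merged exons. In control, EPHB4 was the most abundant member, with 311 ± 17.6 per kb, followed by EFNB1 with 164 ± 14.7 per kb. EFNA1 (53.5 ± 6.59), EFNA3 (45.4 ± 4.66) and EPHA2 (41.4 ± 1.90) came next, and the ranges of neighbours in this order overlapped. EPHB6 stood at 29.2 ± 4.39 and EFNA4 at 17.1 ± 3.38 per kb, each apart from its neighbours. EFNA5, EFNB2 and EPHB2 formed the low end, with 5.42 ± 1.17, 4.10 ± 2.11 and 3.79 ± 0.652 per kb and overlapping ranges between neighbours. The most abundant receptor and the ephrin it is best known to bind, EPHB4 and EFNB2, thus lay at opposite ends, with a log2 ratio of 6.37 ± 0.78 in control and 6.89 ± 0.86 after C3, which overlapped.

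After C3, EPHB4 (346 ± 18.3 per kb) and EFNB1 (221 ± 6.74 per kb) kept the first places. EFNA3 (80.2 ± 13.7), EFNA1 (70.0 ± 2.66) and EPHA2 (65.5 ± 4.11) again overlapped as neighbours. EFNA4, at 37.3 ± 7.87 per kb, overlapped with EPHB6 at 31.5 ± 3.23, from which it had been apart in control. EPHB2 at 6.58 ± 0.792 overlapped with EFNA5 at 6.11 ± 1.56, and EFNA5 with EFNB2 at 3.19 ± 1.49.

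**Figure D4:**
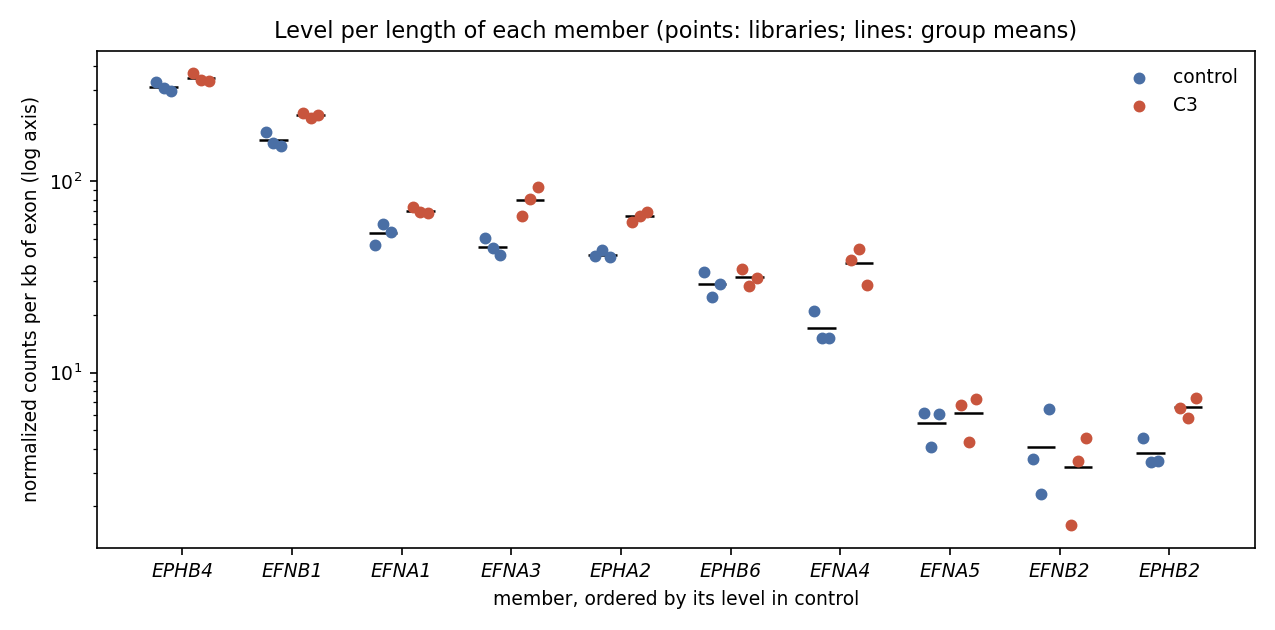
Normalized counts per kb of exon (log axis) for the 10 members, ordered by their mean in control. Points are libraries, blue for control and red for C3, and lines are group means. EPHB4 and EFNB1 lie above all other members in both groups, and EFNA5, EFNB2 and EPHB2 lie below.

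The summed level of the 6 ephrins was 289 ± 16.8 per kb in control and 418 ± 5.86 per kb after C3, 44.5% higher. That of the 4 receptors was 386 ± 21.1 and 450 ± 17.4 per kb, 16.7% higher. In both sums the C3 libraries exceeded every control library. Over the whole family, the 14 receptors summed to 695 ± 28.8 and 766 ± 35.5 per kb (10.3% higher, all C3 libraries above control) and the 8 ephrins to 519 ± 43.7 and 749.6 ± 33.0 per kb (44.5%). The 5 EPHB genes together, EPHB1 included, overlapped between the groups (519 ± 27.2 and 548 ± 26.9 per kb, 5.66%). Among the members, the 4 ephrin-A genes together went from 121 ± 4.35 to 194 ± 7.51 per kb (59.4% higher). EPHA2, the only EPHA member, was 58.3% higher, and the 3 EPHB members together were 11.7% higher. The 2 ephrin-B genes lay at 159.7 to 184 per kb in the control libraries and at 218 to 229 per kb after C3 (33.7%). As a share of all 10 members, EPHB4 made up 46.1%, 46.4% and 45.9% in the control libraries and 41.6%, 39.6% and 38.5% in the C3 libraries, without overlap. The shares of EFNA3 (6.72% ± 0.319 to 9.25% ± 1.67), EPHA2 (6.14% ± 0.467 to 7.55% ± 0.557), EFNA4 (2.53% ± 0.353 to 4.30% ± 0.933) and EPHB2 (0.559% ± 0.0649 to 0.758% ± 0.0879) lay above control in all C3 libraries. The share of EFNB1 overlapped between the groups (24.2% ± 0.808 and 25.5% ± 0.377). Within libraries, the log2 ratio of EPHB4 to EFNB1 was 0.93 ± 0.05 in control and 0.65 ± 0.057 after C3, and the groups did not overlap.

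Of the 12 other genes of the family, 6 passed the count filter. In edgeR 1 (16.7%) was called higher and 0 lower, against 5.05% and 1.47% of all tested genes. DESeq2 on all genes and limma-voom also called 0 lower. At an unadjusted p-value below 0.05, 4 (66.7%) were above and 1 (16.7%) below control, against 16.8% and 15.3% of all tested genes. The called gene was EFNB3, which encodes the remaining ephrin-B. It gave 827, 686 and 661 normalized counts in control and 1152, 978 and 965 after C3, without overlap, and its log2 fold change of 0.50 ± 0.085 (standard error) had an adjusted p-value of 1.3e-04 in edgeR. Per length it was the most abundant ephrin of the whole family, at 225 ± 27.7 per kb in control and 321 ± 32.5 per kb after C3. EPHB1, a receptor known from platelets, was the second most abundant receptor at 168 ± 9.45 per kb in control and 151 ± 5.21 per kb after C3. Its C3 libraries all lay below control, with an adjusted p-value of 0.125 in edgeR.

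EFNA2 and EPHB3 had larger fold changes at low counts and were not called. EFNA2 gave 6.86, 13.8 and 8.36 normalized counts in control and 37.6, 21.1 and 18.8 after C3 (adjusted p-value 0.0167 in edgeR). EPHB3 gave 22.5, 38.2 and 31.0 in control and 67.2, 50.7 and 53.3 after C3 (adjusted p-value 0.0112 in edgeR). In both genes the groups did not overlap. EPHA1 (61.9 ± 3.57 and 72.8 ± 2.91 per kb, adjusted p-value 0.0928 in edgeR) and EPHA8 (72.1 ± 3.57 and 78.8 ± 12.8 per kb, 0.429) were expressed in both groups. EPHA3, EPHA5 and EPHA7 had 0 counts in all libraries. A single library at 0 allows an expected count of up to 3 (95% limit), and 0 in all libraries together allows less per library. EPHA4, EPHA6 and EPHA10 had at most 10 counts in a library. Across the whole family, 16 of 22 genes were tested, and the median log2 fold change was 0.41. In edgeR 6 (37.5%) were called higher and 0 lower, against 5.05% and 1.47% of all tested genes. DESeq2 on all genes called 4 higher and limma-voom 5, and both called 0 lower. Of the tested genes, 2 of 8 receptors and 4 of 8 ephrins were called higher.

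Genes that carry Eph signals into the cell were read from a list of 40 adaptors and effectors, of which 38 were tested. In edgeR, 4 (10.5%) were higher after C3 and 0 lower, against 5.05% and 1.47% of all tested genes, and the median log2 fold change was 0.11. DESeq2 on all genes and limma-voom called 3 higher and 0 lower each, and at an unadjusted p-value below 0.05 there were 14 above (36.8%) and 3 below control (7.89%), against 16.8% and 15.3% of all tested genes. KALRN, which encodes the exchange factor kalirin, rose from 424 ± 33.1 to 627 ± 12.2 normalized counts (log2 fold change 0.56, adjusted p-value 1.9e-05 in edgeR). ANKS1B, an adaptor gene with ankyrin repeats, rose from 177 ± 18.7 to 292 ± 6.44 (0.71, adjusted p-value 5.1e-05 in edgeR). VAV3, another exchange factor gene, rose from 1632 ± 48.8 to 2169.5 ± 181 (0.41, adjusted p-value 8.5e-05 in edgeR). Without C3 replicate 2 its fold change was 1.27 and the call was lost. The remaining called gene, named after its values were seen, was the kinase gene SRC (452 ± 35.5 and 589 ± 32.8, log2 fold change 0.38, adjusted p-value 0.00196 in edgeR). It lay at the fold change threshold and was called in 7 of 14 alternative fits. The call was lost with RLE factors, DESeq2 and limma-voom, and without control replicate 2, control replicate 3 or C3 replicate 1 (log2 fold changes of 0.35, 0.35 and 0.34). CDC42, a widely expressed GTPase gene, had only 13 to 28 counts per library, and no change was read from its row.

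Of 12 partners of ephrin-B tails in reverse signalling, 10 were tested, with a median log2 fold change of 0.05. In edgeR 1 was called higher and 0 lower, against 5.05% and 1.47% of all tested genes. DESeq2 on all genes and limma-voom called 0 lower as well. At an unadjusted p-value below 0.05 there were 2 above (20.0%) and 0 below control, against 16.8% and 15.3% of all tested genes. The called gene was PTPN13, a phosphatase with PDZ domains, at 591 ± 48.4 in control and 801 ± 30.7 after C3 (log2 fold change 0.44, adjusted p-value 2.1e-04 in edgeR). The call was lost without control replicate 3 (log2 fold change 0.38, just under the fold change threshold). Of 19 proteases, ubiquitin ligases and phosphatases that cut ephrins or switch off Eph receptors, 17 were tested. Here 1 (5.88%) was higher, close to the 5.05% of all tested genes, and 0 lower in edgeR. DESeq2 on all genes and limma-voom called 0 lower, and the median log2 fold change was -0.03. At an unadjusted p-value below 0.05 there were 4 above (23.5%) and 3 below control (17.6%), against 16.8% and 15.3% of all tested genes. PTPRF, a receptor phosphatase gene, rose from 3187 ± 362 to 4619 ± 359 normalized counts (log2 fold change 0.53, adjusted p-value 1.2e-05 in edgeR). ADAM10, the sheddase known to cleave ephrins, gave 1982 ± 33.0 and 2057 ± 141, which overlapped.

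The cells' identity was checked with marker lists. Of 13 megakaryocyte markers 12 were tested, and ITGA2B was the most abundant gene, while PF4 had 0 counts in all libraries. Their summed level was 7667, 7701 and 7366 per kb in control and 7285, 6737 and 6803 per kb after C3, lower in all C3 libraries. Of these markers 5 had a log2 fold change above 0. In edgeR 0 were called higher and 2 (16.7%) lower (GP1BA and TUBB1), against 5.05% and 1.47% of all tested genes. At an unadjusted p-value below 0.05, 1 (8.33%) was above and 4 (33.3%) below control, against 16.8% and 15.3% of all tested genes. DESeq2 on all genes and limma-voom called 0 higher and 3 lower each. NFE2, a transcription factor gene, was below control in every C3 library, at 3201 ± 135 and 2466 ± 187 normalized counts. Its log2 fold change of -0.38 had an adjusted p-value of 1.9e-04 in edgeR and missed the fold change threshold only, and it was called lower in 6 of 14 alternative fits, DESeq2 on all genes and limma-voom among them. TUBB1, with 8 to 43 counts per library, was not called without control replicate 1 or C3 replicate 1 (adjusted p-values of 0.0128 and 0.0105 in edgeR). ATP5F1E on the opposite strand shares 35.5% of the exon bases of TUBB1, so the count of TUBB1 carries the limit named for EFNB2. ITGB3, the gene of integrin beta 3 (CD61), was above control in every C3 library, at 184 ± 7.42 and 233 ± 14.7 normalized counts. Its log2 fold change of 0.34 had an adjusted p-value of 0.0325 in edgeR. A gene on the same strand (ENSG00000259753) shares 33.2% of the exon bases of ITGB3, so reads there cannot be assigned to 1 gene with certainty. Of 3 endothelial markers, KDR and TEK (66.7%) were called higher in edgeR and 0 lower, against 5.05% and 1.47% of all tested genes. All 3 markers lay above control in every C3 library, a pattern found in 17.5% of tested genes. Their summed level was 302, 307 and 301 per kb in control and 473, 486 and 463 per kb after C3, and KDR made up 83.0% of it, while CDH5 had 7 to 41 counts. The 4 epithelial markers summed to 709.8 ± 51.7 and 589 ± 43.1 per kb, lower in all C3 libraries, with KRT18 making up 77.0% of the sum. EPCAM and KRT8 overlapped between the groups, and CDH1 had at most 5 counts in a library. Of these 4 markers 3 were tested, and edgeR, DESeq2 on all genes and limma-voom called 0 higher and 0 lower. The edgeR shares of all tested genes were 5.05% and 1.47%. At an unadjusted p-value below 0.05, 0 were above and 1 (33.3%) below control, against 16.8% and 15.3% of all tested genes. That 1 gene, KRT18 (log2 fold change -0.34, adjusted p-value 0.00145 in edgeR), missed the fold change threshold only. The sums of the 7 erythroid markers (672 ± 40.7 and 748 ± 33.8 per kb, KLF1 most abundant), the 4 granulocyte and monocyte markers (68.7 ± 10.5 and 66.2 ± 2.68, MPO most abundant) and the 4 lymphoid markers (2.21 to 6.20 and 3.11 to 8.13 per kb, CD3E most abundant, MS4A1 at 0) overlapped. Of the erythroid markers 5 were tested, and edgeR, DESeq2 on all genes and limma-voom called 0 higher and 0 lower. In edgeR 5.05% and 1.47% of all tested genes were called. At an unadjusted p-value below 0.05, 1 (20.0%) was above and 0 below control, against 16.8% and 15.3% of all tested genes. EPOR, the erythropoietin receptor gene (389 ± 17.1 and 497 ± 24.2 normalized counts, log2 fold change 0.35, adjusted p-value 0.00457 in edgeR), missed the fold change threshold only. EPOR and KLF1 (683 ± 48.3 and 754 ± 12.8) lay above control in all C3 libraries, a pattern found in 17.5% of tested genes. The part of these markers in the differences of the Eph and ephrin members was not tested.

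The genes whose pattern over the 6 libraries was most like that of EPHA2 were SNHG14, DENND3 and SNAPC4, with Pearson correlations of 0.9982, 0.9978 and 0.9977 of log2 CPM. Among 11850 genes compared, 349 had a correlation above 0.95, and all of these values include the difference between the groups. SNHG14, a long non-coding RNA gene, gave 1749.6, 1812 and 1742 normalized counts in control and 2310.5, 2357 and 2503 after C3. For SNHG14 as for EPHA2, all C3 values lay above all control values, a pattern found in 17.5% of tested genes. Because SNHG14 was picked by its correlation with EPHA2, this likeness is not a separate result.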

How the data were processed

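The authors deposited whole-number counts without normalization, 1 column per library, for 58735 Ensembl genes, and 58207 of these had a symbol and coordinates in GENCODE release 44 (GRCh38). The submitters' processing notes and the study's methods name fastp, STAR 2.6.1d and featureCounts 1.5.0-p3 on GRCh38/hg38. Not given in the sources used here are the annotation release, the strand setting and the treatment of reads that map to several places. Counts of overlapping genes are therefore uncertain. Columns were matched to samples by group and replicate number.

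The test used the 15078 genes that reached 10 counts in 3 or more libraries and held 99.87% of counts. Libraries were scaled with TMM factors and compared with edgeR 4.0.16 (quasi-likelihood, no replicate block, R 4.3.3), with Benjamini-Hochberg adjustment over all tested genes. Genes were called at an adjusted p-value below 0.01 with a fold change above 1.3. An exact permutation test (two-sided) was run for each member. The common dispersion was 0.00386, a coefficient of variation of 6.21% beyond counting error, so genes with few counts are limited mainly by counting error. Libraries of a group differed by more than sampling noise (chi-square per degree of freedom of 2.42 or more). The fits were tested on simulated counts with known changes.

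The genes named are the 10 members and the 12 other genes of the family, and the called genes of 3 pathway lists, at most 3 per list and direction with the smallest p-values. The pathway genes SRC, CDC42 and ADAM10 were named outside this rule. Also named are the 3 genes (mean normalized count of at least 50) most correlated with the called member of smallest p-value, neighbours within 100 kb of a called member, and marker genes. The members and the lists were chosen with earlier results of these data known, and the lists were written from general knowledge.

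The alternatives were no count filter, a minimum mean count of 50, library size alone, RLE factors, DESeq2 1.42.0 on the filtered genes or on all genes, limma-voom (limma 3.58.1), leaving out each library in turn, a replicate block, an adjusted p-value of 0.05, no fold change threshold, and the longest transcript as gene length. Promoter windows are from RefSeq (GRCh38.p14).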

Additional observations from a re-analysis of the deposited data

How the results depend on the processing

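Under 14 alternative fits, the 10 members gave 136 log2 fold changes, of which 11 lost the call in the same direction and 0 called values changed sign. The others stayed on the same side of the thresholds. Among the members not called, EFNB2 went from -0.28 to 0.17 without control replicate 3 and to 0.00 without C3 replicate 1. It was -0.64 without C3 replicate 3. EPHB6 went from 0.10 to 0.00 without control replicate 2 and to 0.24 without control replicate 1. EFNA5 went from 0.18 to 0.01 without control replicate 2, to 0.02 without C3 replicate 3 and to 0.38 without C3 replicate 2. EPHA2, EFNA3 and EFNB1 were called in all 14 fits, EPHB2 in 10 of 14 and EFNA4 in 6 of 13, since EFNA4 has no value with a mean count of at least 50. EFNA5 and EFNB2 have none in that fit either, and DESeq2 on all genes gave EFNB2 no adjusted p-value. The number of members called higher was 5, and it was 3 with DESeq2 on all genes, between 3 and 5 with each library left out, and 4 or 5 in the other fits. The number called lower was 0 in each of these fits and under both other call rules. The cause of the lost calls was not tested.

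Of all tested genes, 983 were called (761 higher and 222 lower). Without the fold change threshold there were 1594 (982 higher and 612 lower), as that rule asks less of each gene. With each library left out, 645 to 1106 were called, the fewest without C3 replicate 3, the library with the highest total. With library size alone 1024 genes were called higher and 101 lower, and the median log2 fold change of all tested genes moved from 0.0021 to 0.0761.

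With the replicate block, 1177 genes and the same number of members, 5, were called. Deviations from the group means of libraries with the same number correlated at 0.0209, -0.0468 and 0.0296, so the numbers were not read as pairs, and not every library correlated best with its own number.

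With the length of the longest transcript, EPHB2 and EFNB2 changed places at the low end of the order in control. After C3, EFNA1 (97.7 per kb) came before EFNA3 (85.8) and EPHB6 (38.0) before EFNA4 (37.4). The ranges of each of these pairs overlap. With that length EFNA1 (65.0 per kb or more) was apart from EFNA3 (53.9 or less) in control, and EFNA5 (4.63 or more) from EFNB2 (4.55 or less) after C3. Leaving out members that share exon bases with another gene cannot change the order of the others and gave no separate value.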
